A study of Mus musculus with 18 samples.

Results

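Small intestinal organoids were compared with the pluripotent derivatives to which their clone of origin belongs. The comparison uses 4 of the 18 arrays of a mouse study in which transcript levels were measured with Affymetrix whole-transcript arrays, 1 array per sample. The organoid group holds the arrays titled Crypt 4-OHT(-) and Crypt 4-OHT(+), and the pluripotent group holds derivative #45 of RTC#1 and derivative #9 of RTC#3. RTCs are reprogrammed colon tumor cells, that is, colon tumor cells brought back to a pluripotent-like state. The study as a whole addressed RTCs, Apc mutation in several cell types, and mutant beta-catenin switched on in embryonic stem cells (ESCs) and embryonic fibroblasts (MEFs). Genes were called different by the test described below, and in each of them both organoid arrays lay on the same side of both derivative arrays.

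Both organoid arrays are labelled as derived from clone #45, so by its labels the organoid group represents 1 clone. The 4-OHT(+) organoids had been kept for 2 days in 1 uM 4-hydroxytamoxifen (4-OHT), and the 4-OHT(-) organoids had not. Organoids grew in Matrigel under a medium with EGF, Noggin, R-spondin, N2, B27 and N-acetylcysteine. Derivatives grew in Knockout DMEM with 15% FBS and LIF, so cell type and culture medium cannot be told apart. The labels do not say what was altered in the derivatives, what 4-OHT switches in cells from clone #45, or how the organoids were raised. They give no strain or age. Levels are also given for 4 arrays of #45-derived MEFs, 2 of them treated with 4-OHT at 2 ug/ml for 2 days. A further 3 ESC arrays were Apc +/+, Apc Min/+ and S33 ESCs without doxycycline. Whether arrays of a group came from separate cultures is not stated, so p-values measure the spread between these arrays. That spread includes the 4-OHT difference within the organoid pair and the clone and RTC line difference within the derivative pair. Part of it may be technical.

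The small intestinal epithelium renews itself from Lgr5-positive stem cells at the base of the crypt, which need Wnt signalling. Their daughters become absorptive enterocytes or secretory Paneth, goblet, enteroendocrine and tuft cells, under transcription factors of the Cdx, Hnf4 and Gata families. Embryonic-type pluripotent cells instead run a self-sustaining network around Pou5f1, Sox2 and Nanog, and share with germ cells a set of genes that somatic tissues keep methylated and silent. R-spondin and Noggin are the niche signals that let crypts grow in culture: the former raises Wnt signalling and the latter blocks bone morphogenetic protein (BMP).

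Levels are given as log2 intensity on a common scale, reached by quantile normalization over the 18 arrays of the series, which gives every array a median of 7.93. Pairs of values are in a fixed order, the organoid array without and then with 4-OHT, and derivative #45 and then #9. Differences are organoid minus derivative on the log2 scale, ± the SE of the limma fit with 2 arrays a group, and adjusted p-values are from limma with Benjamini-Hochberg adjustment over all genes tested. A gene was called when its adjusted p was under 0.05. The deposited medians of the 4 arrays ran from 142 to 273 in linear intensity, the lowest being that of the 4-OHT(+) organoids. The 2 organoid arrays correlated across 19938 genes at r = 0.982 and the 2 derivatives at r = 0.975, whereas organoid and derivative arrays correlated at 0.833 to 0.849. Genes are not independent replicates, and all arrays share the normalization.

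The organoid arrays differed in 1 respect that bears on their labels. Xist, the RNA of the inactive X chromosome, was at 10.52 and 5.49 in them, at 7.69 and 6.75 in the derivatives and at 8.57 to 8.83 in the #45 MEFs. The Y-linked gene Eif2s3y was at 8.81 and 9.62 in the organoids and at 10.49 and 9.84 in the derivatives, and Uty was at 7.66 and 8.76 and at 9.63 and 9.48. The other Y-linked genes at hand were Kdm5d, at 6.67 and 7.40 and at 7.35 and 6.86, Zfy1, at 4.81 and 5.35 and at 8.92 and 8.91, and Uba1y, at 5.90 and 6.67 and at 8.17 and 10.0. Xist was thus high in the organoid array without 4-OHT and low in the other. Both organoid arrays were below derivative #45, the line named as their source, for these Y-linked genes except Kdm5d, which in the 4-OHT(+) array was as high as there. What lies behind this was not tested, and the number of calls is therefore given with and without each organoid array, together with the named genes whose call rests on 1 array.

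Of 12774 genes tested, 2320 (18.2%) were higher and 2425 (19%) lower in organoids than in derivatives. The difference was at least 4 log2 units for 211 of the former and 120 of the latter. Every organoid array lay at least 2-fold above every derivative array for 1400 genes (11%) and at least 2-fold below for 1286 (10.1%), and all of these were also called. In no called gene did the 2 groups overlap, and the smallest called difference was 0.70. The median difference over all genes tested was -0.03. Without the 4-OHT(-) organoid array 2690 genes were called, and without the 4-OHT(+) array 2903, of which 2640 and 2827 were among the 4745 called with both and had the same sign. On the intensities as deposited, without joint normalization, 4349 genes were called, and the split moved to 1370 higher and 2979 lower. The median difference over all genes tested was then -0.38.

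The genes named below as higher or lower had an adjusted p under 0.05, printed for those that matter most. Some of the smaller differences among them rest on a single array. Without the 4-OHT(-) organoid array, the calls of B2m, Dclk1, Dnmt3a, Epcam, Fzd6, H2-Ab1, H2-Eb1, Irf1, Klf5, Lef1, Lgr4, Lrp5, Mbd1, Neurod1, Pax6, Sdha, Slc15a1 and Slc22a18 were lost. Without the 4-OHT(+) array, those of B2m, Cdk6, Dclk1, Dnmt3a, Epcam, Fzd6, H2-Ab1, H2-Eb1, Hes1, Hoxb2, Ifnlr1, Klf5, Lgr4, Lrp5, Mbd1, Pax6, Sdha and Sox4 were lost. Leaving out derivative #45 ended the calls of Aim2, Cdk6, Epcam, Fzd6, Irf1, Klf5, Lgr4, Pax6, Prox1, Sdha and Sox4, and leaving out derivative #9 those of B2m, H2-Eb1, Hoxb2, Lef1, Lgr4, Neurod1, Prox1 and Sdha. On the deposited intensities, B2m, Cdk6, Dclk1, Epcam, Fzd6, Hes1, Hoxb2, Ifnlr1, Klf5, Lgr4, Lrp5, Mbd1, Sdha and Slc15a1 were not called. None of the named genes turned in sign under these settings.

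**Figure D1:**
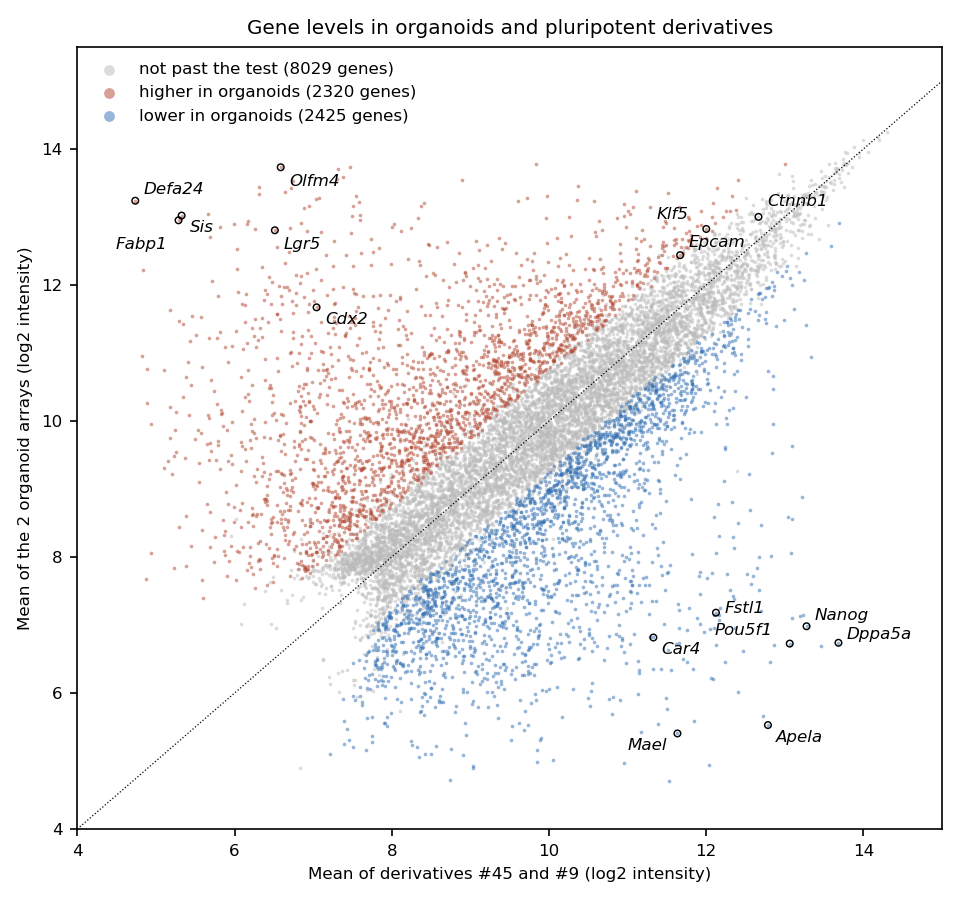
Mean log2 intensity of derivatives #45 and #9 (x axis) against that of the 2 organoid arrays (y axis), 1 point per gene tested. Red points are the 2320 genes higher and blue points the 2425 genes lower in organoids at an adjusted p under 0.05, and grey points the 8029 others. Gut genes such as Defa24, Sis, Fabp1 and Olfm4 sit at the upper left and Apela, Dppa5a, Nanog and Pou5f1 at the lower right, while Ctnnb1 lies among the grey points.

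The labels were first checked against defining markers. The 5 enterocyte, 3 Paneth and 2 measured goblet markers were between 10.70 and 13.74 in the organoid arrays and at or below 7.79 in the derivatives. The enteroendocrine markers Chgb and Gcg followed this pattern, while Chga was above 10 in the derivatives as well. Tuft cell markers were mixed: Dclk1, a kinase that marks tuft cells, was at 8.29 and 8.37 in the organoids but at 10.29 to 10.64 in MEFs. Pou5f1, Nanog and Sox2 were between 12.55 and 13.28 in the derivatives and at or below 7.12 in the organoids. The labels thus held for both groups. Colon markers were uneven in the organoids: Slc26a3, a chloride exchanger of surface colonocytes that also serves the small intestine, was at 10.99 and 10.07, whereas Car1, a colonic carbonic anhydrase, was at 6.73 and 6.72, near its 6.25 and 6.57 in the derivatives. The stomach mucin Muc5ac was likewise low, at 7.02 and 6.72 and 6.68 and 6.50.

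**Figure D2:**
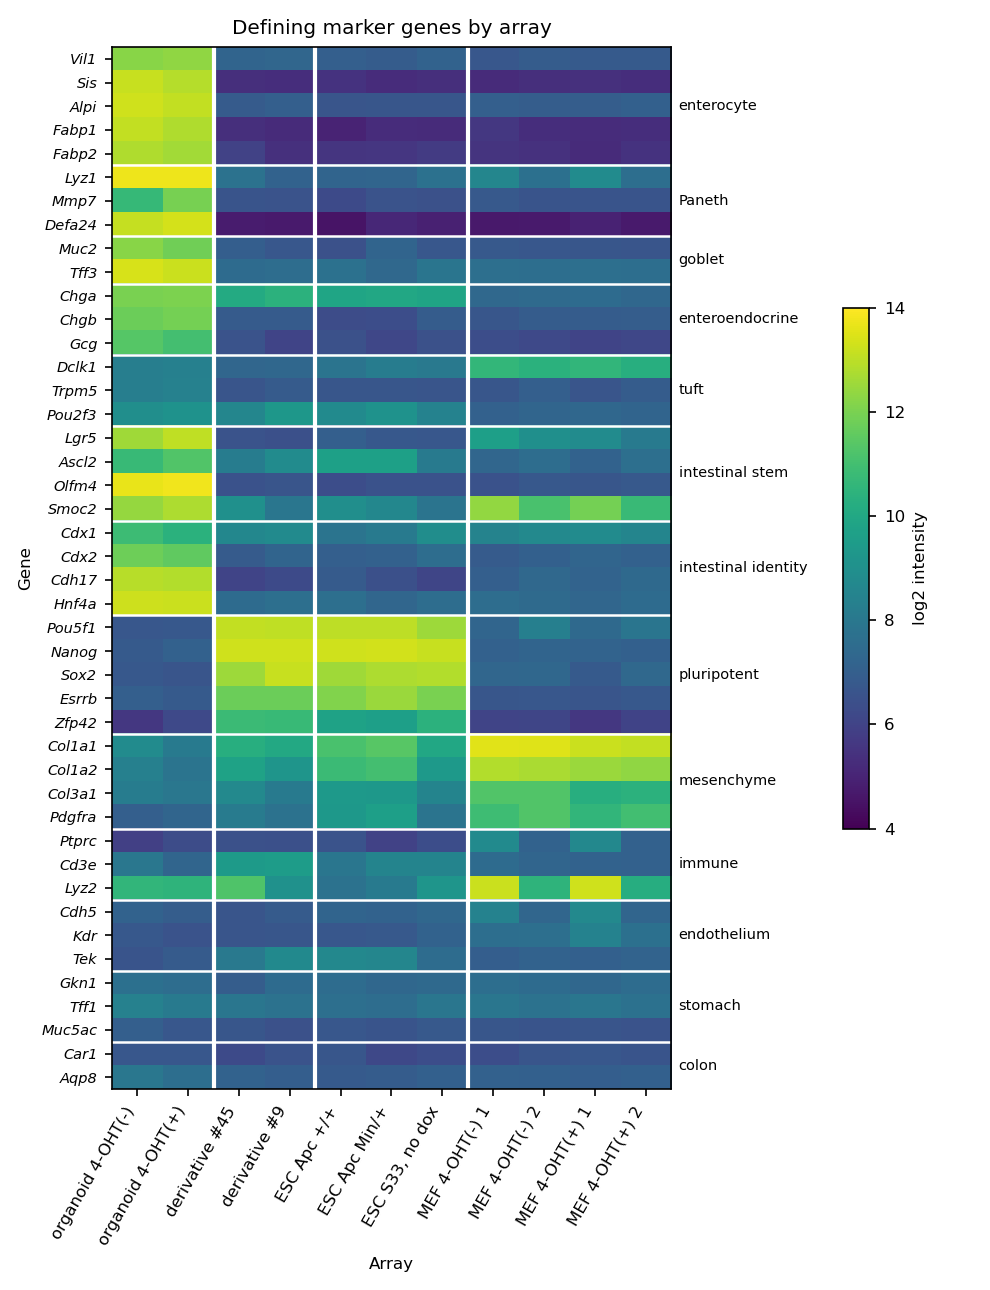
Log2 intensity (colour, from 4 to 14) of defining markers in rows, grouped by cell type, on 11 arrays in columns: 2 organoid, 2 derivative, 3 ESC and 4 MEF arrays. The enterocyte, Paneth and goblet markers are high in the 2 organoid columns, the pluripotent markers in the derivative and ESC columns, and the mesenchymal markers in the MEF columns. Other gut rows are mixed: Smoc2 is high in the MEF columns too, Dclk1 is higher there than in the organoid columns, and Car1 is low in the organoid columns.

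For orientation, the upstream sequences of 4 genes are shown, 3 that were higher in organoids and 1 that was lower. Each was picked because it carries a match to a motif of a factor that acts in its cell type, and the capitals mark that match. Sequences are the 250 bases before the annotated start in RefSeq, build GRCm38.p6, written 5′ to 3′ on the gene's strand. Sis encodes sucrase-isomaltase, a disaccharidase of the enterocyte, and lies on the minus strand (chr3:72967864-72968113). Its capitals are the reverse complement of the CDX letters TTTATNG, at -52. Alpi, intestinal alkaline phosphatase (chr1:87101607-87101856, minus strand), holds the HNF4 letters at -19. Cdhr2, a protocadherin that bridges neighbouring microvilli (chr13:54701213-54701462, plus strand), holds the HNF1 letters at -54. Zfp42, the pluripotency marker also called Rex1 (chr8:43307010-43307259, minus strand), holds the octamer of Pou factors at -186. These 4 are not typical of their lists. The HNF1 letters were in 1 of 21 brush border promoters, Cdhr2, and the octamer in 1 of 21 naive and core pluripotency promoters, Zfp42. The octamer was also in 2 of 15 promoters of gut transcription factors.
Sis: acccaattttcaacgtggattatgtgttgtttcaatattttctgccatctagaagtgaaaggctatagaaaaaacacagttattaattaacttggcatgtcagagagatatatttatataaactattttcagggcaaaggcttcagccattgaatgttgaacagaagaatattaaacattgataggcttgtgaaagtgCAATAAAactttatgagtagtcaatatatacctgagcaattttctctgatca
Alpi: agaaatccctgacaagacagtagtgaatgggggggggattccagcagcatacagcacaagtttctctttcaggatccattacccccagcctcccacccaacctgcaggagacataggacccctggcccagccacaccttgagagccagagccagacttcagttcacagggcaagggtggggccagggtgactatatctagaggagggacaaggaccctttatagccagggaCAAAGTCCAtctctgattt
Cdhr2: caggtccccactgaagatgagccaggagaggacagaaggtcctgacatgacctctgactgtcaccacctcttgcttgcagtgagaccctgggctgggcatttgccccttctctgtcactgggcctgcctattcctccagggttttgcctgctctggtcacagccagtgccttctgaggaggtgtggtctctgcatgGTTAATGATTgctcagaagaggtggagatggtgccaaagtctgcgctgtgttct
Zfp42: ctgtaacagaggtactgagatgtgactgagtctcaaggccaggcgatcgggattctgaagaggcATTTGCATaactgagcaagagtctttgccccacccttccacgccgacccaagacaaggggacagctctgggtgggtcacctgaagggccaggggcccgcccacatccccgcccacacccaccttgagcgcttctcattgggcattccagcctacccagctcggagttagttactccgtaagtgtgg

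All 4 genes separated the groups by a wide margin. Sis was at 13.16 and 12.88 in organoids and 5.33 and 5.32 in derivatives, a difference of 7.69 ± 0.24 (limma adjusted p = 7.89e-06). Alpi was at 13.26 and 13.08 in organoids and 6.88 and 7.02 in derivatives, and its difference was 6.22 ± 0.24 (limma adjusted p = 7.89e-06). Cdhr2 was at 11.65 and 11.39 in organoids and 6.19 and 6.50 in derivatives, a difference of 5.18 ± 0.25 (limma adjusted p = 1.26e-05). Zfp42 ran the other way, at 5.63 and 6.20 in organoids and 10.80 and 10.73 in derivatives, a difference of -4.85 ± 0.27 (limma adjusted p = 2.08e-05).

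Motif letters were counted on both strands of the 300 bases from 250 before to 50 after the start, for the 22862 genes with 1 such entry. Of these, 8181 were tested, 1444 called higher and 1518 called lower. The HNF4 letters CAAAGTCCA were present in 1.11% (exact 95% CI 0.635 to 1.79) of promoters of genes higher in organoids, in 0.264% (0.0718 to 0.673) of those of lower genes in 0.44% of tested and in 0.486% of all 22862. The letters of an HNF1 half-site pair, the match shown for Cdhr2 with its seventh base free, were present in 1.25% (0.74 to 1.96) of higher, 0.132% (0.016 to 0.475) of lower, 0.306% of tested and 0.455% of all. Among genes 2-fold apart on every array they were in 2.06% (1.23 to 3.24) of higher and 0.128% (0.00324 to 0.711) of lower genes. The HNF4 intervals of called higher and lower genes overlap, and the HNF1 shares rest on 18 higher and 2 lower genes. These intervals treat genes as independent draws, and the sets were chosen by the same values, so they describe the sets and are not a test. The CDX letters TTTATNG were in 8.1% (6.75 to 9.63) of higher, 6.46% (5.27 to 7.81) of lower, 7.04% of tested and 11.7% of all promoters. Within lists, they were present in 10 of 28 promoters of nutrient uptake genes (35.7%), among them Fabp1, Fabp2, Apob and Rbp2, and in 6 of 21 of brush border genes (28.6%). They were also present in 5 of 17 interferon response promoters (29.4%) and 4 of 12 promoters of liver and pancreas markers (33.3%), so a high share is not specific to enterocyte lists. The octamer ATTTGCAT was in 2.22% (1.52 to 3.11) of promoters of higher and 1.78% (1.18 to 2.58) of lower genes, against 1.53% of tested and 1.82% of all. TCACGTGA, a palindromic E-box, was in 2.31% (1.61 to 3.19) of lower and 0.9% (0.48 to 1.53) of higher genes, against 1.93% of tested. Among genes 2-fold apart on every array this gap closed, to 1.28% (0.616 to 2.34) and 1.03% (0.472 to 1.95). Promoters with under 5 CpG made up 16.3% of those of higher and 6.65% of those of lower genes, 7.31% of tested and 39.7% of all promoters. Median CpG counts were 2 for xenobiotic metabolism, 2.5 for Paneth cell, 5 for brush border and 6 for nutrient uptake genes, against 20 for germline and 23 for intestinal stem cell genes.

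The gut transcription factors stood high in organoids. Of 32 measured, 31 were tested, 26 were higher and 1 lower, with a median difference of 2.64. A gene that lies above the array median in 1 group alone entered the test through that group, so such shares are descriptions of the list. Hnf4a, the nuclear receptor that maintains enterocyte identity, was at 13.22 and 13.21 in organoids and 7.51 and 7.66 in derivatives (5.63 ± 0.23, limma adjusted p = 8.05e-06). Its relative Hnf4g was at 11.96 and 11.12 in organoids and 5.38 and 5.53 in derivatives (6.08 ± 0.32). Neither organoid array came within 5 log2 units of a derivative for these receptors. Cdx2, the master regulator of intestinal fate, was at 11.79 and 11.56 in organoids and 6.88 and 7.21 in derivatives (4.63 ± 0.25, adjusted p = 1.82e-05). Cdx1 was at 10.85 and 10.39 in organoids and 8.62 and 8.77 in derivatives, a smaller difference of 1.93 ± 0.26. Sox9, which marks crypt progenitors and Paneth cells, was at 12.37 and 12.39 in organoids and 7.98 and 8.44 in derivatives. Gata4, which sets proximal intestinal identity, was at 12.07 and 11.81 in organoids and 8.30 and 8.32 in derivatives (3.63 ± 0.24), and Gata6 was at 12.51 and 12.45 in organoids and 9.04 and 8.68 in derivatives (3.62 ± 0.25). Pdx1, a factor of duodenum and pancreas, was at 10.22 and 9.79 in organoids and 6.87 and 7.05 in derivatives (3.05 ± 0.26). Atoh1, which commits progenitors to the secretory lineage, was at 10.84 and 10.26 in organoids and 6.58 and 7.25 in derivatives (3.63 ± 0.33). Proximal and secretory regulators were thus both present. Klf5, a factor of crypt cells that pluripotent cells also need, was high in both groups, at 12.74 and 12.91 in organoids and 11.96 and 12.05 in derivatives (0.82 ± 0.23, adjusted p = 0.0291). Nr5a2, likewise used by both cell types, was not called (0.24 ± 0.29, adjusted p = 0.556). Prdm1, which represses the adult enterocyte programme in the suckling gut, was the lower member, at 6.99 and 7.89 in organoids and 9.31 and 9.42 in derivatives (-1.92 ± 0.33, adjusted p = 0.00357).

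Enterocyte genes gave some of the widest gaps. In the brush border list, 22 of 25 tested members were higher and 0 lower (26 measured, median 3.62). Among the microvillus components were Vil1, the actin bundler villin, at 12.21 and 12.33 in organoids and 7.21 and 7.29 in derivatives, Cdhr5 with a difference of 5.68 ± 0.23, and Myo1a with 4.06 ± 0.27. Among the digestive enzymes, the glucosidase gene Mgam was at 12.80 and 12.84 in organoids and 6.23 and 6.30 in derivatives (6.55 ± 0.23). The peptidase gene Mep1a differed by 4.90 ± 0.23. Lct, lactase, the disaccharidase of suckling animals, differed less, at 8.86 and 9.52 in organoids and 6.98 and 7.32 in derivatives (2.04 ± 0.30), and so did Dpp4 (1.97 ± 0.39). The members not called were Ace (1.22 ± 0.41, adjusted p = 0.0502), Espn (0.85 ± 0.31, adjusted p = 0.0712) and Cubn (-0.70 ± 0.47, adjusted p = 0.283).

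Genes of nutrient uptake were higher in 32 of 34 tested cases and lower in 0 (38 measured, median 3.47). Fabp1, a cytosolic fatty acid carrier of proximal enterocytes, was at 13.08 and 12.82 in organoids and 5.34 and 5.23 in derivatives, a difference of 7.66 ± 0.24 (limma adjusted p = 7.89e-06). Fabp2, its intestinal relative, was at 12.81 and 12.60 in organoids and 5.97 and 5.40 in derivatives (7.02 ± 0.28). The genes of chylomicron assembly moved with them: Apoa4 was at 13.74 and 13.45 in organoids and 7.36 and 7.41 in derivatives, and Apob, Apoa1 and Mttp differed by 5.26, 5.44 and 4.71. Sugar transporters covered both faces of the cell. Slc5a1, the sodium-glucose cotransporter of the apical membrane, was at 12.62 and 12.35 in organoids and 7.17 and 8.34 in derivatives (4.73 ± 0.39), and the fructose carrier Slc2a5 and the basolateral carrier Slc2a2 differed by 3.37 and 3.89. The peptide transporter Slc15a1 showed a smaller gap, 1.21 ± 0.29. Cybrd1, the duodenal ferric reductase, differed by 5.37 ± 0.24. Genes of the ileum stayed under the filter and were not tested. Slc10a2, the bile acid transporter, was at 6.67 and 7.67 in organoids and 5.71 and 5.59 in derivatives. Fabp6, its cytosolic partner, was at 6.31 and 6.70 in organoids and 5.76 and 6.18 in derivatives. For both genes the organoid arrays lay above the derivatives, though all values were under the array median. Ada (0.31 ± 0.25, adjusted p = 0.355) and Slc7a7 (0.27 ± 0.23, adjusted p = 0.403) were the members tested and not called.

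Xenobiotic metabolism had the highest median difference of the lists, 4.26, with 28 of 33 tested members higher and 0 lower (36 measured). Cyp2c65, a gut cytochrome P450, was at 12.43 and 12.02 in organoids and 4.85 and 4.83 in derivatives (7.39 ± 0.25), and Cyp3a11, the main drug-oxidising P450 of liver and gut, was at 10.74 and 11.17 in organoids and 4.79 and 4.84 in derivatives (6.14 ± 0.26). The conjugating enzyme gene Ugt2b34 was at 13.10 and 12.98 in organoids and 5.56 and 5.77 in derivatives (7.37 ± 0.24). The carboxylesterase gene Ces2e differed by 5.85 ± 0.30, and the sulfotransferase gene Sult1d1 by 6.08 ± 0.33. These enzyme families hold near-identical copies whose probes can share signal, so single members are uncertain. The efflux pumps were unequal: Abcc2 differed by 4.09 ± 0.33 and Abcb1a by 2.14 ± 0.23, whereas Abcg2, which pluripotent cells also carry, did not pass (-0.62 ± 0.31, adjusted p = 0.161). Cbr1, Gstp1, Gsta4 and Ephx2 were not called either, with differences from -0.43 to 1.02.

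**Figure D3:**
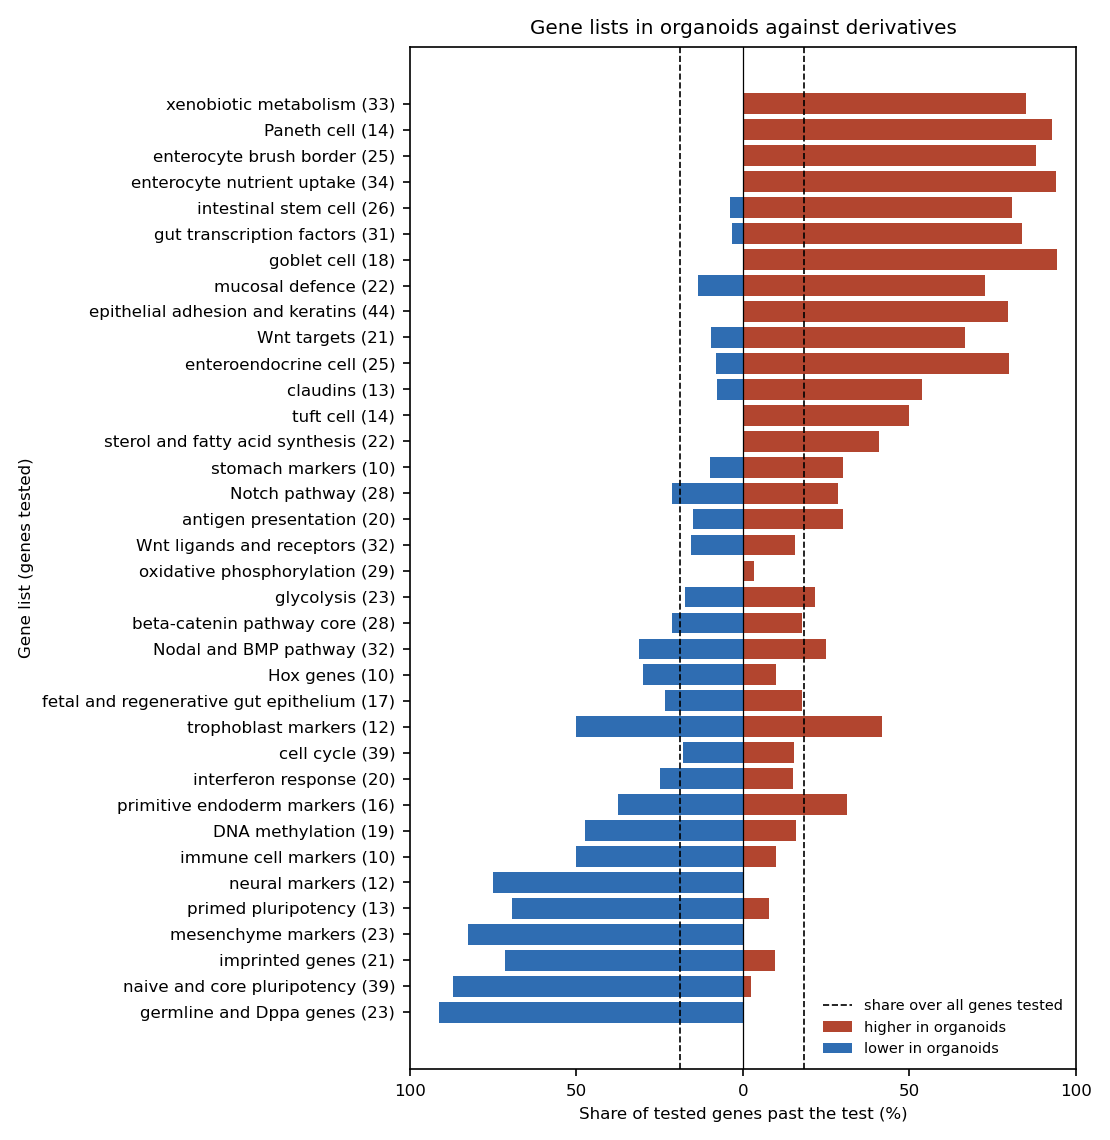
Percent of the tested members of each gene list that were higher (red bars) or lower (blue bars) in organoids than in derivatives at an adjusted p under 0.05, for lists with at least 10 tested members. Dashed lines give the shares over all 12774 genes tested, 18.2% and 19%. The enterocyte, Paneth and goblet lists have the longest red bars and the germline, naive pluripotency, mesenchyme and neural lists the longest blue bars, while the bars of oxidative phosphorylation end short of both lines.

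Of the secretory lineages, Paneth, goblet and enteroendocrine genes stood high in organoids, while tuft cell genes were mixed. Defa24, an alpha-defensin that Paneth cells release into the crypt, gave the largest difference of all genes, at 13.14 and 13.34 in organoids and 4.76 and 4.71 in derivatives (8.50 ± 0.24, limma adjusted p = 7.89e-06). Alpha-defensin genes are near-identical copies, so the signal may not be of Defa24 alone. The Paneth list had 13 of 14 tested members higher and 0 lower (14 measured, median 4.20). Lyz1, Paneth cell lysozyme, was at 13.73 and 13.74 in organoids and 7.79 and 7.15 in derivatives (6.27 ± 0.28), and Mmp7, the protease that activates defensins, was at 10.70 and 11.93 in organoids and 6.61 and 6.56 in derivatives. Wnt3, the ligand by which Paneth cells feed stem cells, was at 9.01 and 9.39 in organoids and 7.39 and 7.38 in derivatives (1.82 ± 0.25). The goblet list had 17 of 18 tested members higher and 0 lower (20 measured, median 2.60). Muc2, the gel-forming mucin, was at 12.23 and 11.84 in organoids and 6.97 and 6.70 in derivatives (5.20 ± 0.26, adjusted p = 1.37e-05). Tff3, a trefoil peptide secreted with it, was at 13.40 and 13.22 in organoids and 7.50 and 7.58 in derivatives (5.77 ± 0.23). Zg16, a lectin of the mucus layer, was the goblet gene with the widest spread within organoids, at 12.69 and 11.06 in organoids and 6.0 and 6.30 in derivatives.

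Enteroendocrine genes were higher in 20 and lower in 2 of 25 tested members (28 measured, median 1.91). Hormones of several cell types were present: Gcg, the glucagon-like peptide precursor of L cells, was at 11.38 and 10.99 in organoids and 6.55 and 6.03 in derivatives (4.89 ± 0.29). Gip of K cells differed by 3.88 ± 0.24, Cck of I cells by 3.20 ± 0.30, Sst of D cells by 3.26 ± 0.35 and Ghrl, ghrelin, by 2.38 ± 0.23. Neurog3, the factor that starts the lineage, was at 9.81 and 10.61 in organoids and 6.82 and 6.85 in derivatives, and Chgb, a granule protein, at 11.75 and 11.92 in organoids and 6.89 and 6.88 in derivatives. The granule protein gene Chga was high in derivatives too, at 12.0 and 12.03 in organoids and 10.11 and 10.45 in derivatives, which left a difference of 1.74 ± 0.25. Lower in organoids were 2 regulators shared with neural cells, Neurod1, at 8.17 and 8.90 in organoids and 9.64 and 10.22 in derivatives (-1.40 ± 0.34, adjusted p = 0.0149), and Pax6 (-1.07 ± 0.33, adjusted p = 0.0405). The tuft list was the weakest of the lineages, with 7 of 14 tested members higher and 0 lower (18 measured, median 0.75). Its clearest member was Rgs13, a regulator of G protein signalling, at 8.82 and 9.63 in organoids and 5.23 and 5.17 in derivatives (4.02 ± 0.31). Trpm5, the taste channel of tuft cells, was at 8.28 and 8.40 in organoids and 6.63 and 6.87 in derivatives (1.59 ± 0.24), whereas Pou2f3, the lineage's master factor, did not differ past the test (0.08 ± 0.30, adjusted p = 0.861).

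The stem cell list had 21 members higher and 1 lower of 26 tested (26 measured, median 2.87). Olfm4, a secreted crypt base glycoprotein, was at 13.67 and 13.79 in organoids and 6.53 and 6.64 in derivatives (7.14 ± 0.23, limma adjusted p = 7.89e-06). Lgr5, the R-spondin receptor that defines these stem cells, was at 12.59 and 13.02 in organoids and 6.57 and 6.46 in derivatives (6.29 ± 0.26, adjusted p = 7.89e-06), and at 8.09 to 9.63 in the #45 MEFs. In S33 MEFs, which enter none of the comparisons here, it was at 12.60 and 11.11 without and with doxycycline, so a high Lgr5 level is not limited to organoids here. Ascl2, the Wnt-driven factor of crypt base cells, was at 10.72 and 11.27 in organoids and 8.18 and 8.82 in derivatives (2.49 ± 0.32). Rnf43, a ligase that removes Wnt receptors and so damps the signal, was at 11.54 and 12.18 in organoids and 7.14 and 7.21 in derivatives (4.68 ± 0.28). Smoc2 was at 12.41 and 12.79 in organoids and 9.01 and 7.92 in derivatives but also at 10.79 to 12.37 in the #45 MEFs, so it too does not set gut stem cells apart from fibroblasts here. Markers proposed for slow-cycling or reserve stem cells were divided: Lrig1 and Hopx differed by 3.22 and 3.0, while Bmi1 (0.85 ± 0.31, adjusted p = 0.0648) and Tert (-0.87 ± 0.37, adjusted p = 0.108) were not called. Fstl1, a follistatin-like secreted protein, was the lower member, at 7.01 and 7.36 in organoids and 12.20 and 12.05 in derivatives (-4.94 ± 0.25, adjusted p = 1.39e-05) and at 13.55 to 13.76 in MEFs.

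Wnt target genes were higher in 14 and lower in 2 of 21 tested cases (26 measured, median 2.20), while most genes that carry the signal did not pass the test. Axin2, a feedback inhibitor and general readout of the pathway, was at 11.30 and 11.81 in organoids and 8.26 and 8.72 in derivatives (3.07 ± 0.29, limma adjusted p = 0.000215). Myc was at 12.46 and 12.49 in organoids and 9.84 and 9.78 in derivatives (2.66 ± 0.23), and Sp5 differed by 2.27 ± 0.37. Nkd1, another feedback inhibitor, was high in the 4-OHT(+) organoid array alone, at 8.95 and 11.03 in organoids and 8.60 and 8.88 in derivatives, and was not called (adjusted p = 0.142). Neither was the cyclin gene Ccnd1 (0.25 ± 0.24, adjusted p = 0.465). The lower targets were Bmp4, at 7.62 and 7.80 in organoids and 9.85 and 9.22 in derivatives (-1.82 ± 0.29), and Lef1 (-1.15 ± 0.29, adjusted p = 0.0191). Some of these targets are also stem cell markers and stand in both lists. In the beta-catenin core, 5 of 28 tested genes were higher and 6 lower (31 measured, median 0.15, and -0.14 on the deposited intensities), shares near those of all genes. Ctnnb1, beta-catenin itself, was at 12.98 and 13.02 in organoids and 12.56 and 12.77 in derivatives (0.34 ± 0.24, adjusted p = 0.301), and Apc, the scaffold that leads to its destruction, at 10.49 and 10.87 in organoids and 9.86 and 10.47 in derivatives (0.52 ± 0.30, adjusted p = 0.212). Neither was called. The nuclear partners of beta-catenin differed in both directions: Tcf7l2, the main intestinal TCF, was at 10.63 and 11.10 in organoids and 9.17 and 9.48 in derivatives (1.54 ± 0.27). Tcf7l1, the repressive TCF of pluripotent cells, was at 7.88 and 8.24 in organoids and 10.89 and 11.21 in derivatives (-2.99 ± 0.26, adjusted p = 0.000144). Among ligands and receptors, 5 of 32 tested were higher and 5 lower (39 measured, median 0.25, which became -0.16 on the deposited intensities). These shares too were near those of all genes, 18.2% and 19%. Higher were Lgr5 and Wnt3, given above, and the receptor genes Lgr4, Lrp5 and Fzd6, by 0.82, 1.10 and 0.98. Porcn, the acyltransferase that Wnt secretion needs, was lower, at 8.92 and 8.74 in organoids and 10.50 and 10.76 in derivatives (-1.80 ± 0.24), and the ligand Wnt5a differed by -1.87 ± 0.35.

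Epithelial genes were higher in 35 of 44 tested members and lower in 0 (44 measured, median 2.21), yet the 2 classic markers of epithelium hardly separated the groups. Epcam was at 12.43 and 12.45 in organoids and 11.60 and 11.74 in derivatives (0.77 ± 0.23, limma adjusted p = 0.0355), and Cdh1, E-cadherin, at 12.89 and 13.20 in organoids and 12.19 and 12.59 in derivatives (0.66 ± 0.26, adjusted p = 0.09). Both were low in MEFs, at 6.28 to 6.53 and 7.33 to 7.79. Pluripotent cells are an epithelium of their own, and the keratin and desmosome genes set the groups further apart. Krt8 was at 13.73 and 13.83 in organoids and 9.96 and 9.72 in derivatives, and its partner Krt18 differed by 3.09 ± 0.24. Krt19 was at 13.24 and 13.16 in organoids and 9.15 and 7.68 in derivatives (4.78 ± 0.45). The desmosomal genes Dsp and Dsc2 differed by 4.56 and 4.91, and Ocln, occludin of the tight junction, by 3.10. Claudins, which set what a tight junction lets through, differed in both directions, with 7 of 13 tested higher and 1 lower (16 measured). Cldn2, the cation pore of crypts, was at 11.48 and 11.18 in organoids and 6.24 and 5.81 in derivatives (5.31 ± 0.27), and Cldn15, the sodium pore of the villus, differed by 4.59 ± 0.33. Cldn3, Cldn7, Cldn8 and Cldn23 were also higher, by 2.64 to 3.66. Cldn6, the claudin of pluripotent cells, was the lower one, at 7.44 and 8.07 in organoids and 12.26 and 11.88 in derivatives (-4.31 ± 0.30, adjusted p = 5.16e-05).

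Mucosal defence genes were higher in 16 and lower in 3 of 22 tested members (36 measured, median 2.29, and 0.86 over all measured members without the filter). Pigr, the receptor that carries immunoglobulin A across the epithelium, was at 12.93 and 12.75 in organoids and 6.76 and 6.64 in derivatives (6.14 ± 0.24). Ccl25, the chemokine that draws lymphocytes to the small intestine, was at 12.82 and 12.37 in organoids and 8.77 and 8.16 in derivatives (4.13 ± 0.30). Nox1, an epithelial NADPH oxidase, was at 6.79 and 10.34 in organoids and 5.92 and 6.11 in derivatives, high in the 4-OHT(+) array alone, and was not called (adjusted p = 0.0742). Aim2, a cytosolic DNA sensor, was lower, at 9.89 and 8.0 in organoids and 11.69 and 11.12 in derivatives (-2.46 ± 0.56, adjusted p = 0.0123). Antigen presentation was divided, with 6 of 20 tested genes higher and 3 lower (24 measured, median 0.32, which became -0.03 on the deposited intensities). Class I genes led the former: Erap1, which trims peptides for class I, was at 9.93 and 10.02 in organoids and 6.91 and 6.40 in derivatives (3.32 ± 0.27), and B2m, the class I light chain, at 12.99 and 13.18 in organoids and 12.48 and 12.01 in derivatives (0.84 ± 0.26, adjusted p = 0.0422). The lower ones were the class II genes H2-Ab1 (-1.14 ± 0.34) and H2-Eb1 (-1.0 ± 0.29) and the transcription factor Irf1 (-1.56 ± 0.45). Interferon response genes did not lean to organoids, with 3 of 20 tested higher and 5 lower (28 measured, median -0.49, and -0.26 without the filter). The counts of antigen presentation and interferon response genes are to be read against the 18.2% higher and 19% lower of all genes tested. Ifnlr1, the receptor chain for the epithelial interferon lambda, was higher, at 8.81 and 8.96 in organoids and 7.50 and 7.86 in derivatives (1.21 ± 0.25), and so was Ifih1, an RNA sensor (2.51 ± 0.23). Stat2, which carries the interferon signal to the nucleus, was lower (-1.37 ± 0.23).

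Genes of fetal and regenerating gut epithelium, which culture or injury can switch on, were higher in 3 and lower in 4 of 17 tested cases (17 measured, median -0.23). These shares were near the 18.2% higher and 19% lower of all genes tested, so the genes below are single members and not a trend of the list. Krt7 was at 11.99 and 12.63 in organoids and 9.28 and 8.30 in derivatives (3.52 ± 0.38), and Il1rn, an interleukin-1 antagonist, differed by 2.84 ± 0.36. Gja1, connexin 43, was at 6.41 and 6.05 in organoids and 12.07 and 12.05 in derivatives (-5.83 ± 0.25), and Ptgs2, the inducible cyclooxygenase, differed by -4.47 ± 0.32. The members that were not called include several on which the organoid arrays disagreed. Anxa1, an annexin of the fetal gut state, was at 7.03 and 11.05 without and with 4-OHT, Clu, a marker of revival stem cells, at 8.81 and 11.21, Il33 at 6.27 and 8.76 and Msln at 8.02 and 9.94. In all 4 the 4-OHT(+) array was the higher one, and the mean of the list was 8.79 and 9.99 in the organoid arrays, against 10.05 and 9.60 in the derivatives.

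The pluripotency network was lower almost throughout. Of 39 tested genes in the naive and core list, 34 were lower and 1 higher (40 measured, median -3.31), the higher one being Klf5. Pou5f1 was at 6.70 and 6.76 in organoids and 13.08 and 13.05 in derivatives (-6.34 ± 0.23, limma adjusted p = 7.89e-06), Nanog at 6.84 and 7.12 in organoids and 13.27 and 13.28 in derivatives (-6.29 ± 0.24) and Sox2 at 6.77 and 6.64 in organoids and 12.55 and 13.18 in derivatives (-6.15 ± 0.28). These are the core factors of the network. Dppa5a, an RNA-binding protein of pluripotent cells, was at 6.48 and 6.99 in organoids and 13.82 and 13.54 in derivatives (-6.94 ± 0.27). Tdgf1, a Nodal co-receptor, was at 6.67 and 6.72 in organoids and 13.62 and 13.32 in derivatives (-6.77 ± 0.24), and Esrrb, a nuclear receptor of the naive state, at 7.02 and 6.84 in organoids and 11.76 and 11.74 in derivatives. The organoid values of these genes lay under the array median of 7.93. Lin28a, which blocks let-7 maturation, was at 7.77 and 7.77 in organoids and 11.12 and 11.90 in derivatives (-3.74 ± 0.31). Members shared with gut or other tissues were not called: Tbx3 (-0.16 ± 0.28, adjusted p = 0.679), Kit (-0.66 ± 0.30, adjusted p = 0.126), Klf4 (-0.80 ± 0.32, adjusted p = 0.0886) and Nr5a2. The single largest fall of all genes was that of Apela, a secreted peptide hormone of pluripotent cells, at 5.37 and 5.69 in organoids and 12.74 and 12.83 in derivatives (-7.26 ± 0.24, adjusted p = 7.89e-06). Several zinc finger genes of little known function followed, Zfp980 (-7.09 ± 0.25) and Zfp979 (-6.83 ± 0.24) among them. Such zinc finger genes come in near-identical copies, so their probes may share signal.

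Germline genes were lower in 21 of 23 tested cases and higher in 0 (28 measured, median -3.39). Mael, which helps to silence transposons in germ cells, was at 5.52 and 5.30 in organoids and 11.60 and 11.67 in derivatives (-6.23 ± 0.24). Ddx4, the germ cell helicase Vasa, was at 5.46 and 5.22 in organoids and 10.23 and 9.56 in derivatives, and Sycp3, of the meiotic chromosome axis, differed by -4.86 ± 0.30. Dazl and Dppa3 differed by -4.23 and -3.39. The 2 not called were Rhox6 (-0.34 ± 0.44, adjusted p = 0.579) and Rhox9 (-2.22 ± 0.77, adjusted p = 0.0572). Primed pluripotency genes were lower in 9 and higher in 1 of 13 (median -1.44): Otx2 differed by -3.57 ± 0.55 and Zic2 by -4.89 ± 0.27, while Sox4, also a factor of gut progenitors, was higher, at 10.26 and 11.40 in organoids and 8.95 and 9.27 in derivatives (1.72 ± 0.38, adjusted p = 0.011).

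Genes of DNA methylation and its removal differed in both directions, more of them lower. Of 19 tested genes, 9 were lower and 3 higher (19 measured, median -1.06). Dnmt3l, the cofactor of de novo methylation in germ and pluripotent cells, was at 6.53 and 6.38 in organoids and 12.64 and 12.98 in derivatives (-6.35 ± 0.25). Dnmt3b was at 8.14 and 8.02 in organoids and 10.49 and 11.11 in derivatives (-2.72 ± 0.28), and Dnmt3a differed by -1.67 ± 0.46. The maintenance enzyme Dnmt1 did not pass the test, at 11.51 and 11.81 in organoids and 11.38 and 11.93 in derivatives (0.01 ± 0.28, adjusted p = 0.977). Among the TET oxidases, which start demethylation, Tet1 was at 8.22 and 8.95 in organoids and 12.66 and 13.41 in derivatives (-4.45 ± 0.36, limma adjusted p = 9.46e-05) and Tet2 at 8.61 and 8.86 in organoids and 10.81 and 11.49 in derivatives (-2.42 ± 0.30). Tet3 ran opposite, at 10.94 and 10.92 in organoids and 8.03 and 9.06 in derivatives (2.39 ± 0.35, adjusted p = 0.0018). The methyl-CpG binding genes Mbd2 and Mbd1 were higher too, by 1.98 and 1.10.

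Imprinted genes, expressed from 1 parental copy, were lower in 15 and higher in 2 of 21 tested cases (23 measured, median -2.54). Peg10, a retrotransposon-derived gene of placenta, was at 7.13 and 7.29 in organoids and 12.11 and 13.29 in derivatives (-5.49 ± 0.39), and Mest, a hydrolase of growing embryonic tissue, differed by -5.31 ± 0.36. Igf2, a fetal growth factor, was at 8.16 and 7.97 in organoids and 11.89 and 10.38 in derivatives (-3.07 ± 0.46), with the derivatives 1.51 log2 units apart. The noncoding Meg3 differed by -2.54 ± 0.29. The higher members were Ascl2, named above, and Slc22a18 (1.47 ± 0.33).

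Signalling and growth lists held genes of both directions, to be read against the 18.2% higher and 19% lower of all genes. In the Notch pathway, which holds the balance between absorptive and secretory fate, 8 of 28 tested genes were higher and 6 lower (30 measured). Dll4, a ligand that secretory cells present to stem cells, was at 9.55 and 9.54 in organoids and 7.12 and 7.29 in derivatives (2.34 ± 0.23), and Hes1, the target that represses Atoh1, differed by 1.16 ± 0.23. Rbpj, the DNA-binding partner of Notch, was lower (-1.95 ± 0.26), as was Numbl (-3.10 ± 0.36). Nodal and BMP genes were higher in 8 and lower in 10 of 32 (34 measured, median 0.03, and -0.38 on the deposited intensities). Those lower were led by the Nodal arm, with Tdgf1, Nodal (-3.77 ± 0.25), Foxh1 (-3.66 ± 0.25) and Gdf3 (-4.45 ± 0.37). Tgfbr2, the TGF-beta receptor of mature epithelium, was higher, at 11.10 and 11.42 in organoids and 8.56 and 7.80 in derivatives (3.08 ± 0.31). Hox genes were mostly under the filter, with 10 of 37 measured genes tested, 1 higher and 3 lower, the higher being Hoxb2 (1.09 ± 0.32).

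Cell cycle genes were higher in 6 and lower in 7 of 39 (39 measured, median -0.39), shares close to those of all genes, 18.2% and 19%, and 26 did not pass the test. The Myc genes went opposite ways, with Myc higher, as above, and Mycn lower, at 8.52 and 7.74 in organoids and 11.95 and 12.75 in derivatives (-4.22 ± 0.37, adjusted p = 0.000146). The G1 cyclins differed in both directions: Ccne1 was at 10.38 and 10.31 in organoids and 12.52 and 12.51 in derivatives (-2.16 ± 0.23) and Ccnd3 differed by -1.37 ± 0.25, while Ccnd2 (1.59 ± 0.31) and its kinase Cdk6 (1.16 ± 0.31) were higher. The proliferation marker Mki67 (0.63 ± 0.34, adjusted p = 0.183) and the replication clamp Pcna (-0.03 ± 0.23, adjusted p = 0.931) were not called. Energy metabolism differed in single steps. Of 29 oxidative phosphorylation genes 1 was higher, Sdha (0.70 ± 0.23, adjusted p = 0.0488), and 0 were lower (median 0.21, and -0.09 on the deposited intensities). In glycolysis and gluconeogenesis 5 of 23 were higher and 4 lower. Pklr, the pyruvate kinase of liver and gut, was at 13.13 and 12.84 in organoids and 8.43 and 8.23 in derivatives (4.66 ± 0.25), and the gluconeogenic G6pc, Fbp1 and Fbp2 differed by 4.23, 4.08 and 4.21. Lower were Slc2a3, the high-affinity glucose carrier, at 7.17 and 7.10 in organoids and 13.28 and 13.09 in derivatives (-6.05 ± 0.24), and Ldhb, at 7.49 and 7.55 in organoids and 13.0 and 11.59 in derivatives (-4.78 ± 0.43), while the other lactate dehydrogenase gene, Ldha, did not pass the test at 13.96 and 13.94 in organoids and 13.86 and 13.67 in derivatives (0.19 ± 0.23, adjusted p = 0.568). Sterol and fatty acid synthesis genes were higher in 9 of 22 and lower in 0 (median 0.73), each by at most 1.50, Fads2 (1.50 ± 0.27) and Srebf1 (1.47 ± 0.23) among them.

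Markers of other cell types moved with the comparison as well. The 26 measured mesenchyme markers averaged 7.60 and 7.60 in the organoids, 9.72 and 9.43 in the derivatives, 9.44 to 10.68 in the ESCs and 11.86 to 12.16 in the MEFs. None of them was higher in organoids and 19 of 23 tested were lower (median -2.38). Acta2, smooth muscle actin, was at 7.70 and 7.97 in organoids and 12.61 and 12.68 in derivatives (-4.81 ± 0.24) and at 13.54 to 13.95 in MEFs, and Sparc, a matrix protein that primitive endoderm also makes, was at 7.33 and 6.96 in organoids and 13.32 and 13.15 in derivatives (-6.09 ± 0.25) and at 13.99 to 14.11 in MEFs. Col1a1, the defining fibroblast collagen, was at 8.81 and 8.10 in organoids and 10.26 and 10.05 in derivatives (-1.70 ± 0.30), against 13.10 to 13.54 in MEFs, and Col3a1 was not called (-0.32 ± 0.29, adjusted p = 0.424). In such bulk samples, fewer cells of a type and less RNA per cell cannot be told apart, and the part of mesenchymal RNA in the falls was not tested. Of the genes tested, 794 were at least 4-fold higher in MEFs than in organoids and also higher in MEFs than in derivatives, and 549 of these were called. With them left out of the test, 4305 genes were called, 1942 of them lower in organoids. Immune markers averaged 7.38 and 7.18 in organoids and 7.87 and 7.51 in derivatives, with 1 of 10 tested higher and 5 lower (18 measured). Ptprc, the pan-leukocyte marker CD45, was low throughout at 5.91 and 6.32 and 6.48 and 6.46, while Lcp1, an actin bundler of leukocytes that gut epithelium also carries, was higher at 11.91 and 11.63 in organoids and 7.27 and 6.74 in derivatives (4.76 ± 0.28). Of 12 neural markers tested 9 were lower and 0 higher (17 measured). Stmn2, a growth cone protein, was at 6.06 and 5.27 in organoids and 12.83 and 12.61 in derivatives (-7.06 ± 0.31), and at 10.05 to 11.30 in MEFs, so it is not confined to neurons in these data. Of 10 stomach markers tested 3 were higher and 1, Sox2, lower (16 measured). The higher ones were led by Gkn3, a gastrokine, at 9.43 and 10.62 in organoids and 6.19 and 6.32 in derivatives (3.77 ± 0.39). Liver and pancreas markers were higher in 4 of 5 tested cases, but 14 were measured, and their median without the filter was 0.27. Ttr, transthyretin, differed by 4.94 ± 0.24 and Alb, albumin, by 2.19 ± 0.29. Of 4 colon markers tested 2 were higher (12 measured). Car4, a membrane carbonic anhydrase, was lower, at 6.72 and 6.91 in organoids and 11.26 and 11.40 in derivatives (-4.51 ± 0.24). Endothelial markers were higher in 1 and lower in 3 of 6 tested (12 measured). Primitive endoderm markers were higher in 5 and lower in 6 of 16 (16 measured), and trophoblast markers higher in 5 and lower in 6 of 12 (16 measured). Over all genes tested 18.2% were higher and 19% lower, and a marker could enter the test through 1 group alone.

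The same organoid arrays were set against 4 #45 MEF arrays, which share the clone of origin, and against 3 ESC arrays, which share the pluripotent state and medium of the derivatives. These comparisons share the organoid arrays with the one above, so their values are given side by side and no overlap is drawn. Against MEFs, 4278 of 12995 genes (32.9%) were higher and 4250 (32.7%) lower, and against ESCs 3056 of 12871 (23.7%) were higher and 3454 (26.8%) lower. On the deposited intensities those splits moved to 1916 and 6658, and to 1562 and 4764. List medians against derivatives, ESCs and MEFs were 3.62, 3.47 and 4.12 for brush border, 4.20, 4.40 and 4.14 for Paneth cell, and 2.64, 2.87 and 2.84 for gut transcription factor genes. For these 3 lists the medians lay close together, while other lists, gut lists among them, differed more. Mucosal defence genes had medians of 2.29, 1.78 and 1.19, and fetal and regenerative genes of -0.23, -0.26 and -1.78. Epithelial genes had medians of 2.21, 1.66 and 3.94, and 40 of 42 tested were higher against MEFs. Cdh1 differed from MEFs by 5.57 ± 0.16 (limma adjusted p = 6.35e-07). Interferon response genes were lower in 25 of 28 tested cases against MEFs (median -3.06), and Hox genes in 28 of 31 (median -1.98). The interferon list averaged 7.96 and 8.09 in organoids and 10.09 and 10.55 in the first #45 MEF pair. It averaged 11.87 and 11.67 in the second pair, but 8.60 and 8.05 in S33 MEFs without and with doxycycline. The S33 MEF means thus lay nearer to the organoid means than the #45 MEF means did. The S33 array without doxycycline still lay above both organoid arrays, and the one with doxycycline between them. This rests on 1 S33 MEF array per setting, with no test. Cell cycle genes were higher in 26 and lower in 6 of 39 against MEFs, and higher in 6 and lower in 17 of 39 against ESCs. Oxidative phosphorylation genes were higher in 22 of 29 against MEFs (median 0.66). Imprinted genes were lower against all 3, in 15 of 21, 13 of 20 and 15 of 21 tested cases, with medians of -2.54, -2.64 and -2.73. Stem cell genes had medians of 2.87, 2.40 and 1.79, and naive pluripotency genes of -3.31, -3.47 and 0.14.

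**Figure D4:**
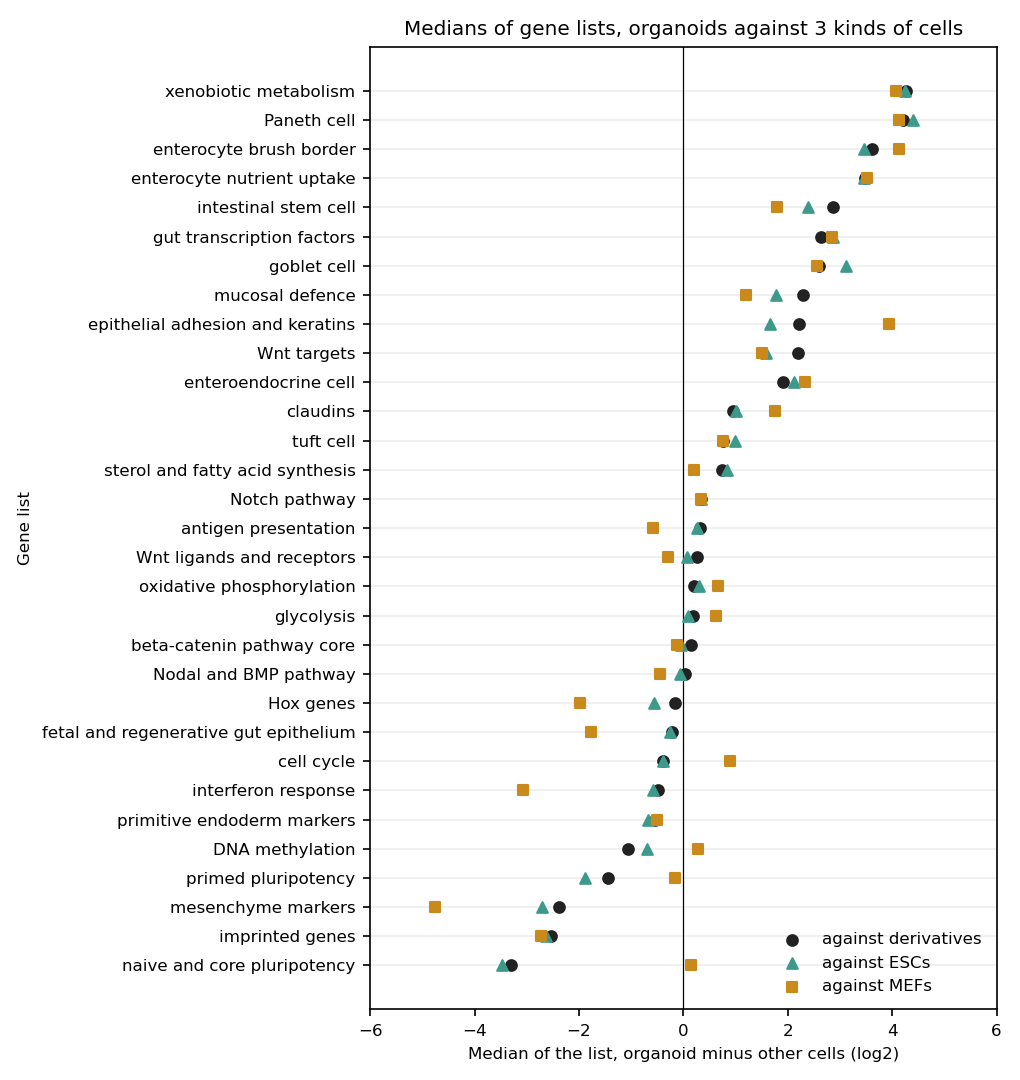
Median log2 difference of the tested members of each gene list between the 2 organoid arrays and the 2 derivatives, the 3 ESC arrays or the 4 #45 MEF arrays (1 marker each). Enterocyte, Paneth and goblet lists sit well above 0 in all 3 comparisons. The interferon response list lies at -0.49 against derivatives and at -3.06 against the #45 MEFs.

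Within the organoid group, 278 of the 12774 genes (2.18%) were at least 2-fold higher and 89 (0.697%) at least 2-fold lower in the 4-OHT(+) array, with 1 array each and no test. The SD of the difference between these arrays over all genes was 0.42, against 0.53 between the 2 derivatives. The 10 genes given next had the widest gaps among the genes called against derivatives. Genes not called could be further apart, such as Anxa1, at 7.03 and 11.05 without and with 4-OHT, and Nox1, at 6.79 and 10.34. Bex1, a small adaptor protein, was at 5.79 and 8.92 without and with 4-OHT, and Fn1, fibronectin, at 7.02 and 10.10. Prox1, a transcription factor of enteroendocrine and stem-like cells, was at 7.86 and 10.57, which left its difference from derivatives with a wide error, 2.52 ± 0.74 (adjusted p = 0.0333). Tuba1a was at 8.62 and 11.28, Tut4 at 7.32 and 9.96 and Tmem184c at 8.36 and 10.67. Timp2, a metalloproteinase inhibitor, was at 8.03 and 10.27, Thbs1, a matrix glycoprotein, at 9.66 and 11.83 and Tm4sf1 at 6.80 and 8.96. Mptx1, a pentraxin of mucosal epithelium, was the member that was higher without 4-OHT, at 9.24 and 7.05. These genes enter the comparison with derivatives only with an error that includes this gap.

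**Figure D5:**
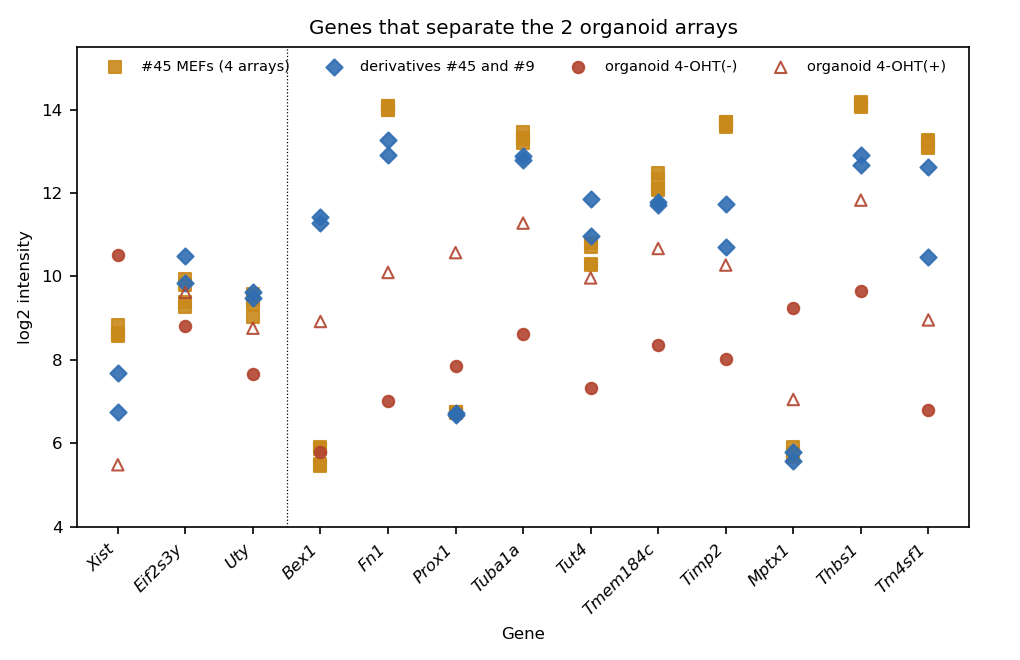
Log2 intensity of Xist, Eif2s3y, Uty and 10 other genes (1 column each), in the organoid arrays without and with 4-OHT, the 2 derivatives and the 4 #45 MEF arrays. The 10 are those furthest apart between the organoid arrays among genes called against derivatives. Xist stands at 10.52 without and 5.49 with 4-OHT, and 9 of the 10 other genes were higher in the 4-OHT(+) array.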

How the data were processed

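Each of the 18 samples was hybridised to 1 array, and the 4 arrays compared here are 2 organoid and 2 derivative samples. The deposited values are linear intensities, 1 per probe set and array. The background correction, probe summary and scaling used by the authors are not given in the sources used here. Some arrays share values to the last digit (19.2% of probe sets in 1 MEF pair), and deposited medians ran from 142 to 317, so all 18 log2 arrays were quantile normalized together with no pseudocount. Derivative #9 shared 11.7% and 9.52% of its values with the arrays of that MEF pair, without and with 4-OHT. It shared 0% with derivative #45 and with both organoid arrays. Whether the 2 derivatives were scaled in different sets was not tested. Linear values had not been assumed in the design, which took them to be log2. RNA came from an RNeasy column and was biotin labelled with a whole-transcript kit, per the labels' protocols.

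Of 28856 probe sets, 3 had no values, 21789 had 1 gene symbol, 1621 several and 5443 none. Of the 21789, 21698 matched RefSeq (GRCm38.p6) by Entrez identifier with 0 changes of symbol. Each gene was represented by its brightest probe set on average, which left 19938 genes. A gene was tested where it exceeded the array median (percentile 50) on at least 1 array compared. Tests were limma 3.58.1 in R 4.3.3 (lmFit, eBayes without trend, two-sided), Benjamini-Hochberg adjusted at 0.05 over all genes tested, and were checked on simulated data. The array number limits the precision. All columns of per-sample values were used in the normalization.

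Members and all 39 gene lists (1013 names, 922 measured, 5 of them through an older symbol) were chosen with earlier results of these data known. Named genes were Pou5f1, Nanog, Lgr5, Cdx2, Axin2, Ctnnb1 and Apc, list members by role, and the 20 largest rises and 20 largest falls past the test. The 10 widest gaps between organoid arrays among genes past the test were also named. Xist and Y-linked genes, the 4 printed promoters and the gene families in the closing section were chosen after their values were seen. Figures were drawn with matplotlib 3.10.9. Alternatives covered normalization, filters, probe sets, the variance model and leaving out arrays.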

Additional observations from a re-analysis of the deposited data

How the results depend on the processing

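Calls per comparison were recounted under each alternative. The balance of higher and lower calls turned in some: against derivatives, with 2320 higher and 2425 lower, it became 2365 and 1956 with median centring and 1454 and 1236 without the 4-OHT(-) organoid array. Against ESCs, with 3056 and 3454, median centring gave 2842 and 2513. Which side holds more calls is therefore not settled. For derivatives, leaving out 1 array gave 2690 to 4870 calls against 4745. The lowest, 2690, was without the 4-OHT(-) organoid array, and 2903 (1433 higher) remained without the 4-OHT(+) array. These settings leave 1 organoid array, assumed to vary like the derivatives. Leaving out derivative #45 gave 4489 and #9 gave 4870. For MEFs the range was 7620 to 8277 against 8528, and for ESCs 4491 to 7121 against 6510. Other settings for derivatives stayed within 1.5 times: 4349 as deposited (31.5% higher against 48.9%), 4321 with median centring (54.7% higher), 4799 with 4 arrays normalized alone, 4945 without a filter, 4758 with the mean of probe sets, 4998 with a variance trend and 6713 with all 18 arrays in the fit. As alternatives chosen after seeing the data, 4582 were called without X- and Y-linked genes and 4305 without genes high in MEFs. As deposited, 22.3% of MEF calls were higher against 50.2%, and 24.7% of ESC calls against 46.9%. Of 531 named genes past the test, 396 passed without each of the 4 arrays in turn, 444 under every other planned setting, and 0 reversed. As deposited, list medians changed sign for antigen presentation (-0.03), Wnt ligands and receptors (-0.16), the beta-catenin core (-0.14), Nodal and BMP (-0.38) and oxidative phosphorylation (-0.09). Without the filter on low values, medians over all measured members came nearer to 0 for several lists: 0.86 for mucosal defence against 2.29, 0.36 for claudins against 0.95, 0.27 for liver and pancreas markers against 2.19, 0.30 for colon markers against 2.14, -0.35 for immune markers against -1.09 and -0.22 for endothelium markers against -0.65. The trophoblast median turned from -0.33 to 0.05 and that of Nodal and BMP genes from 0.03 to -0.03. No paired analysis was possible because both organoid arrays come from #45 and their labels carry no replicate numbers. With 2 arrays a group, of which the organoid pair also differs in 4-OHT, small differences cannot be resolved.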

Other observations

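Beyond the lists, gene families chosen by their symbols after the values were seen showed the following, with no test of the family. Of 36 tested cytochrome P450 genes (Cyp symbols) 25 were higher in organoids (69.4%) and 0 lower, against 18.2% and 19% of all genes. All 6 tested Ugt and all 10 tested Ces genes, which conjugate or hydrolyse drugs and lipids, were higher, with median differences of 4.28 and 3.14. So were all 5 Reg genes, secreted lectins of the gut (median 4.37), and all 4 Akr1c genes, steroid-reducing enzymes (median 4.99). Of 11 Galnt genes, which start mucin-type O-glycosylation, 8 were higher and 1 lower. Solute carriers (Slc) were higher in 96 of 248 cases (38.7%) and lower in 34 (13.7%). Many of these families hold near-identical members whose probes may share signal.

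On the side of the derivatives, 82 of 286 tested Zfp genes, most of them zinc finger transcription factors, were lower in organoids (28.7%) and 24 higher (8.39%). Those on chromosome 4, where several zinc finger genes of pluripotent cells lie together, were lower in 9 of 16 cases and higher in 1. Small nucleolar RNA genes (Snor symbols) were lower in 19 of 42 cases (45.2%) and higher in 0, with a median of -0.73. Bex and Tceal genes, small X-linked adaptors, were lower in 4 of 5 cases, with a median of -4.0. X-linked genes as a whole were lower in 125 of 383 cases (32.6%) and higher in 63 (16.4%), against 18.6% and 18.2% of 12365 autosomal genes. The unequal Xist level of the 2 organoid arrays stands beside these values, and its part in them was not tested.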
